A study of Mus musculus with 6 samples.

Results

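The enolase genes of the mouse were followed through RNA sequencing counts of fetal heart ventricle. The members were taken by name from the 25006 Ensembl genes counted in each library: Eno1, its retrocopy Eno1b, Eno2, Eno3 and Eno4, 5 genes in all. They were chosen with results of the same comparison already known. Their values are therefore given as a description with no p or test, whether they passed the threshold over all genes is stated once beside the background, and the separation of the groups in Eno1 and Eno1b is not evidence of its own.

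The series held 6 libraries from ventricles of NMRI embryos at embryonic day 17.5. The 3 control libraries carry the genotype label WT, and the 3 others the label VecadcreERT2; Prox1f/f, an inducible Cre under the promoter of the endothelial VE-cadherin gene together with floxed alleles of Prox1, a transcription factor of lymphatic endothelium. Per the labels' protocols, Prox1 f/f females were mated with males carrying the Cre and floxed alleles, so the protocol and the WT label leave the Prox1 alleles of the controls unclear. The pregnant females received tamoxifen, 5 mg per 40 g of body weight, at E13.5 and E14.5. The same protocol is given for both groups. The labels do not say how many embryos entered a library or whether libraries came from separate embryos, so errors measure the spread between these libraries, which may be technical.

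Libraries held 35195544 to 44330594 counts, and 3 counts corresponded to 0.0677 to 0.0852 CPM (counts after scaling for library size). Prox1, the targeted gene, went against the label: it had 149, 143 and 149 CPM in controls and 164, 159.8 and 168 CPM in the null-labelled group. The groups did not overlap, and edgeR called it higher (log2 fold change 0.15, SE 0.03, edgeR adjusted p = 0.0331). The call was lost with a replicate block (edgeR adjusted p = 0.0517) and without control 1, control 2 or any single null-labelled library (edgeR adjusted p from 0.0646 to 0.130). Cardiomyocytes express Prox1 too, and the counts cover the whole gene. So the comparison is written as control against null-labelled, and its directions are those of the sample labels. Only the null-labelled genotype names Cre, so Cre and the floxed alleles cannot be told apart. Y-linked transcripts and Xist, the RNA of the inactive X chromosome, occurred together in null-labelled libraries 1 and 3, and the log2 fold changes of the members and of called genes that are named are also given without both. This leaves 1 null-labelled library, whose spread is taken from the controls, so no p is given there. Prox1 then had a log2 fold change of 0.12.

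Enolase converts phosphoglycerate to phosphoenolpyruvate, the last step but one of glycolysis, and works as a dimer. Eno1 encodes the alpha subunit, made in nearly all tissues and in the early heart. Eno3 encodes the beta subunit of striated muscle, which gains on alpha as heart and skeletal muscle mature. Eno2 encodes the gamma subunit of neurons and neuroendocrine cells, and Eno4 a more distant form needed in the sperm tail. A retrocopy arises when a spliced messenger RNA is copied back into the genome, so Eno1b resembles the Eno1 transcript and not the Eno1 gene.

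In mm10, Eno1 lies on chromosome 4 (150236721 to 150248879), Eno1b on chromosome 18 (48045335 to 48048412), Eno2 on chromosome 6 (124760053 to 124769673), Eno3 on chromosome 11 (70657202 to 70662513) and Eno4 on chromosome 19 (58943425 to 58971421). GENCODE M21 annotates all 5 as protein coding and tags Eno1b as a retrogene. The coding sequence of the longest protein-coding transcript was 1305 bases in Eno1, Eno1b, Eno2 and Eno3, and 1860 bases in Eno4. It was spread over 11 exons in Eno1, Eno2 and Eno3 and lay in 1 exon in Eno1b.

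Compared base by base, Eno1 and Eno1b differed at 8 of 1305 coding bases (99.4% identical). All 8 stood at the third position of a codon, at coding positions 726, 747, 750 and 816 in exon 8, 1047 and 1056 in exon 9, and 1224 and 1233 in exon 11 of Eno1. The first 725 coding bases were identical. Eno1 differed from Eno2 at 325 bases (75.1% identical) and from Eno3 at 304 (76.7% identical). The longest run shared by Eno1 with either was 20 bases, so a short read can be told apart between these subunits but often not between Eno1 and its copy.

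A stretch of 90 bases within exon 3 shows this. The Eno1 line (chr4:150241045-150241134, plus strand) has 0 differences from Eno1b and so holds no capitals. In the Eno2 line (chr6:124767707-124767796, minus strand) and the Eno3 line (chr11:70658165-70658254, plus strand), capitals mark the 26 and 24 bases that differ from Eno1. All are written 5′ to 3′ and taken from GENCODE M21 transcripts.
Eno1: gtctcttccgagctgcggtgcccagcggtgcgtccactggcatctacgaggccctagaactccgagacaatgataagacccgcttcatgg
Eno2: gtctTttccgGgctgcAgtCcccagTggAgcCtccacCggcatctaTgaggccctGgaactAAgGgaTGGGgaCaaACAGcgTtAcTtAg
Eno3: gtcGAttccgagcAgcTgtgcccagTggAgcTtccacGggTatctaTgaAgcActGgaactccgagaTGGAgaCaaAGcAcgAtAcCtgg

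The stretch within 1 exon where Eno1 and Eno1b differ most lies in exon 8 (chr4:150246570-150246659, plus strand). Only the 3 bases in capitals differ from the retrocopy there, and a read must cross such a base to be placed by its coding sequence. The matching stretch of Eno3 (chr11:70660997-70661086, plus strand) has 22 bases in capitals, which mark its differences from Eno1.
Eno1: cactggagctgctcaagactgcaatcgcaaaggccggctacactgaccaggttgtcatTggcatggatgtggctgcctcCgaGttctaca
Eno3: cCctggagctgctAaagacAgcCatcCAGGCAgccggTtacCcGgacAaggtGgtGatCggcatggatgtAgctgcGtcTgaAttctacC

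The sharing was measured by cutting each longest coding transcript, untranslated regions included, into all its overlapping stretches of 75 bases and looking for each in the transcripts of every other annotated gene, on both strands. Of the Eno1 stretches, 65.4% also occurred in another gene, and 64.2% in Eno1b. Of the Eno1b stretches, 79.6% occurred elsewhere, and 68.1% in Eno1. No stretch of Eno2 or Eno3 was found in another gene (0%), while 3.69% of those of Eno4 were shared with Hspa12a, which overlaps it. With stretches of 50 and 100 bases the Eno1 share was 72.2% and 59.0%, and the Eno1b share 84.5% and 73.4%. The read length is not given in the sources used here.

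Of the 75-base stretches found in Eno1 alone, 288 lay wholly in its 5′ untranslated region, 307 wholly in the coding sequence and 49 wholly in the 3′ untranslated region. A processed pseudogene on chromosome 2, Gm4735, held 47.3% of the Eno1 stretches and 62.6% of those of Eno1b, and was not analysed here. How reads that fit several places were counted is not given in the sources used here. Counts of Eno1 and Eno1b are therefore uncertain as levels, and the sum of both covers reads moved between them but not reads dropped or placed on another copy.

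**Figure D1:**
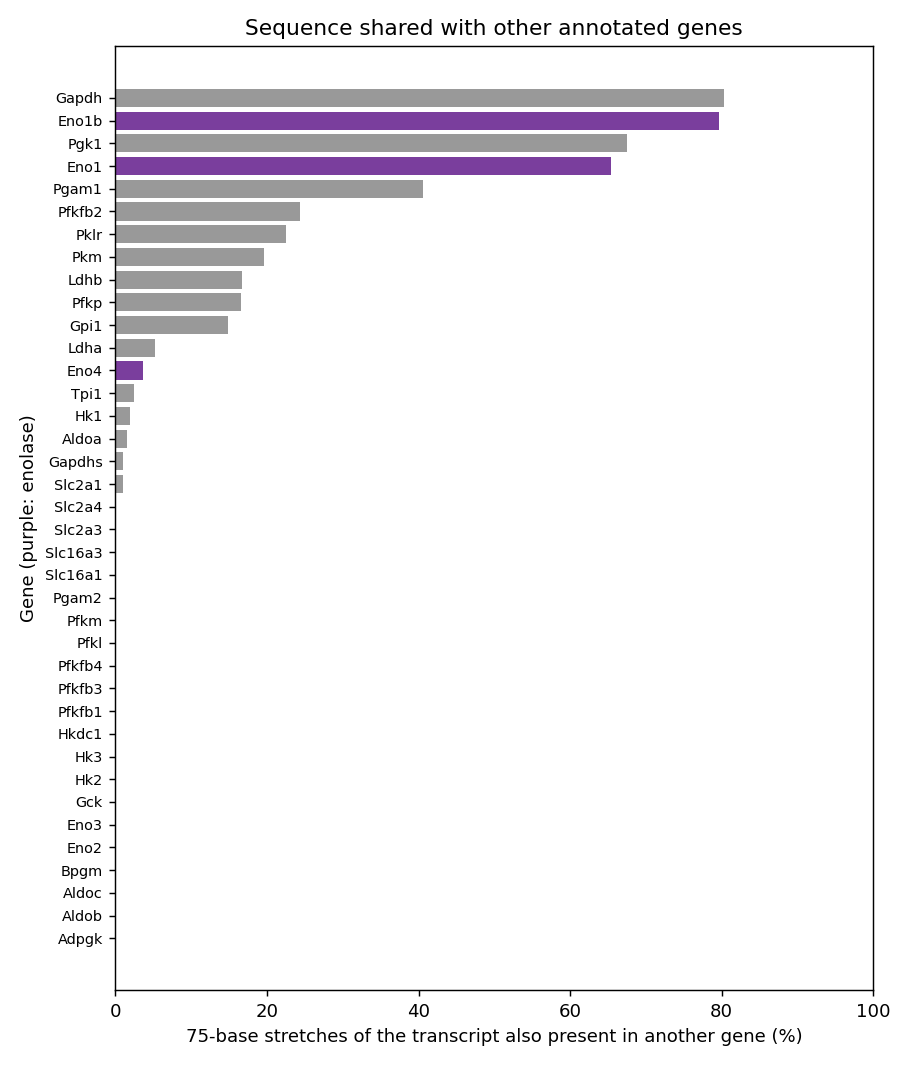
Percent of the 75-base stretches of each gene's longest coding transcript (x axis) that also occur in another annotated gene, for 5 enolase genes (purple) and 33 glycolysis genes (grey). Eno1b (79.6%) and Eno1 (65.4%) stand near the top with Gapdh (80.3%) and Pgk1 (67.5%), while Eno2 and Eno3 are at 0%.

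Per length of annotated exons, Eno3 was the highest enolase gene in every library. Its level was 539 ± 16.0 CPM per kb in controls and 545 ± 16.7 CPM per kb in the null-labelled group (SD, n = 3). Eno1 followed with 19.6 ± 0.901 and 31.6 ± 2.11 CPM per kb. Eno2 had 12.5 ± 2.97 and 10.9 ± 1.04 CPM per kb.

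Eno1b came next with 7.06 ± 0.224 CPM per kb in controls and 3.68 ± 0.0736 CPM per kb in the null-labelled group. Eno4 was far below, at 0.0432 ± 0.0103 and 0.0841 ± 0.0662 CPM per kb. Within each group the libraries of neighbouring genes in this order did not overlap. The closest pair was Eno1 and Eno2 in controls, with 18.6 to 20.2 against 10.7 to 16.0 CPM per kb. The annotated exons of Eno1 include retained introns, and with the longest transcript as length the control means were 599 CPM per kb for Eno3, 52.1 for Eno1, 21.1 for Eno2 and 7.40 for Eno1b, in the same order. Neither length corrects for shared stretches of 75 bases, 65.4% of Eno1 and 79.6% of Eno1b against 0% of Eno2 and Eno3. The places of Eno1 and Eno1b in this order are therefore uncertain.

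**Figure D2:**
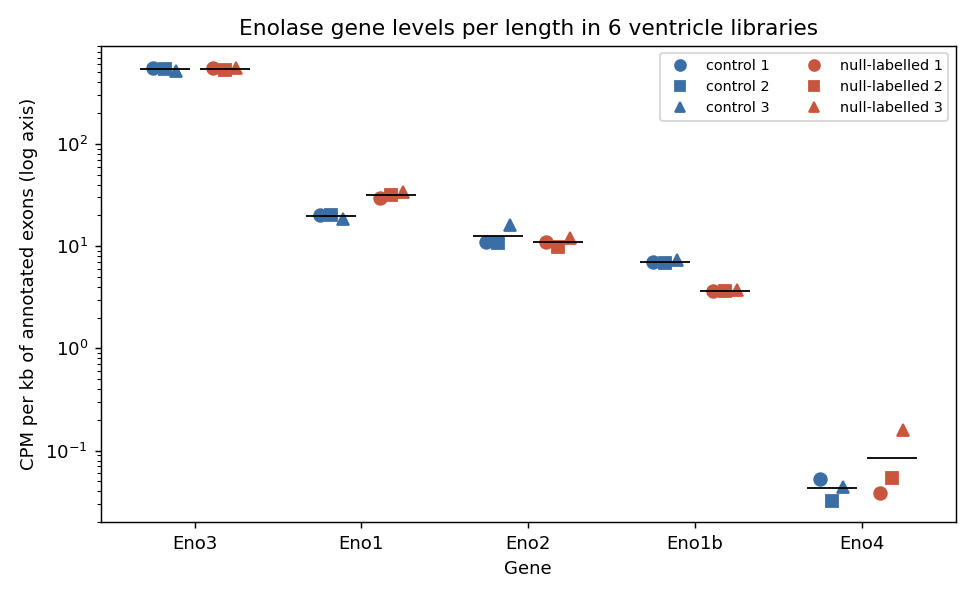
Level of each enolase gene in CPM per kb of annotated exons (y axis, log scale) in the 3 control (blue) and 3 null-labelled (red) libraries, with lines at the group means. Eno3 lies between 522 and 558 CPM per kb, Eno1 is higher and Eno1b lower in red than in blue, and Eno4 stays under 0.2.

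Eno1 counts were higher in null-labelled ventricles. Scaled to library size, Eno1 had 109, 108 and 100.02 CPM in control libraries 1, 2 and 3 and 158, 171 and 181 CPM in null-labelled libraries 1, 2 and 3, from counts of 4778, 3896 and 3534 against 6365, 6210 and 7473. Every null-labelled library lay above every control, and the lowest null-labelled library, number 1, was well clear of the highest control. The group means were 106 ± 4.85 and 170.01 ± 11.3 CPM (SD, n = 3). The fitted difference was 1.61-fold, a log2 fold change of 0.69 ± 0.05 (SE).

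Eno1b counts moved the other way. The retrocopy had 13.1, 12.9 and 13.7 CPM in controls and 6.81, 6.85 and 7.07 CPM in the null-labelled group, from counts of 575, 466 and 485 against 274, 249 and 292. The groups did not overlap, and the 3 null-labelled libraries were close to each other. The means were 13.2 ± 0.420 and 6.91 ± 0.138 CPM, a 1.92-fold lower level with a log2 fold change of −0.94 ± 0.07.

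Taken as a sum, which does not depend on how reads were divided within the pair, Eno1 and Eno1b had 122, 121 and 114 CPM in controls and 165, 178 and 188 CPM in the null-labelled group. The groups again did not overlap. The means were 119 ± 4.43 and 177 ± 11.5 CPM, a fitted difference of 1.49-fold and a log2 fold change of 0.57 ± 0.05. The mean of Eno1 was higher by 64.4 CPM and that of Eno1b lower by 6.34 CPM, so the fall of the retrocopy equalled 9.84% of the rise of Eno1. All Eno1b counts of the controls together would equal 20.6% of that rise. Both percentages cover counted reads only, not reads dropped or placed on another copy, and a shift of reads was not tested.

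Of the 4 enolase genes that passed the filter on low counts, 2 were called changed, Eno1 higher and Eno1b lower, at an edgeR adjusted p under 0.05. Over all genes, 801 of 14815 genes were called (5.41%), 2.43% higher and 2.98% lower, and 26.6% of tested genes had groups that did not overlap. With the pair summed, 5.40% of genes were called. These shares are given as background only, because the members were chosen on this comparison.

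The share of the pair's counts assigned to the retrocopy was 10.7% in control library 1 (exact binomial 95% interval 9.92 to 11.6), 10.7% in library 2 (9.78 to 11.6) and 12.1% in library 3 (11.1 to 13.1). In null-labelled libraries it was 4.13% (3.66 to 4.63), 3.86% (3.40 to 4.35) and 3.76% (3.35 to 4.21). The intervals of the groups did not overlap and cover counting error only, since no source names molecular identifiers and reads then need not be independent. The group means were 11.2 ± 0.783% and 3.91 ± 0.190% (SD, n = 3), a difference of −7.25 percentage points. Without null-labelled libraries 1 and 3, leaving 1 such library, the log2 fold changes were 0.69 for Eno1, −0.95 for Eno1b and 0.58 for their sum, and the difference in share was −7.31 points.

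**Figure D3:**
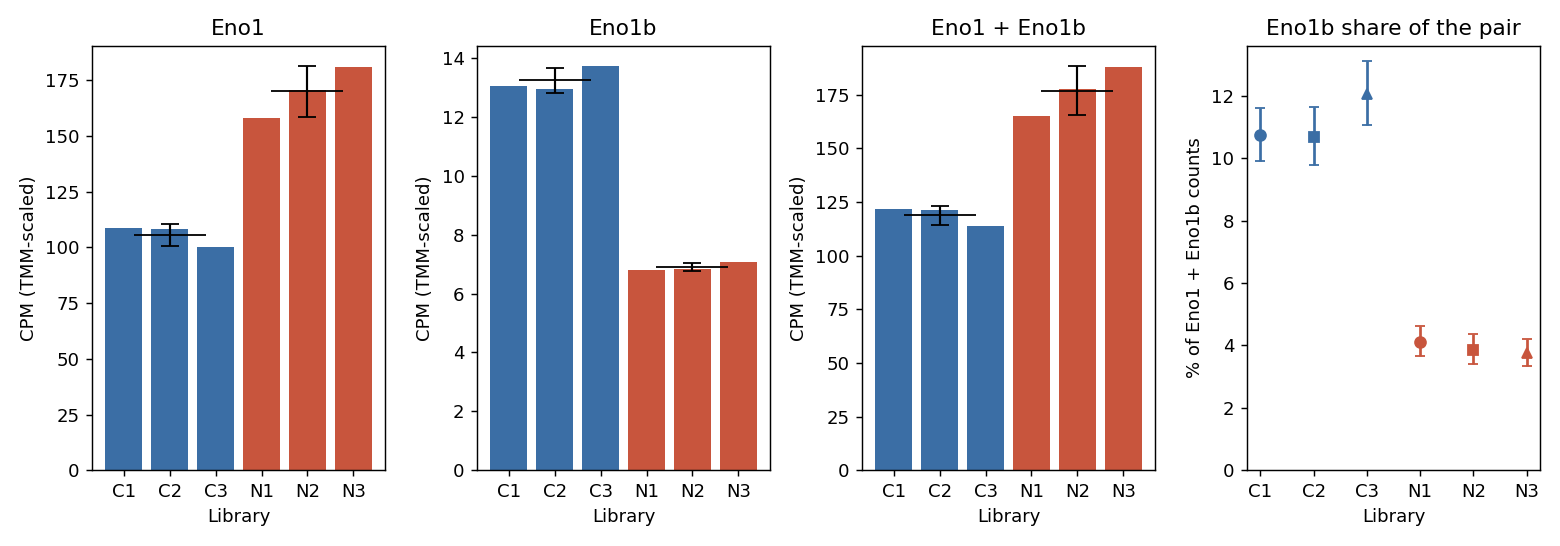
CPM of Eno1, Eno1b and their sum in control libraries C1 to C3 (blue) and null-labelled libraries N1 to N3 (red), with group means and SD in black, and the percent of the pair's counts assigned to Eno1b with exact 95% binomial intervals. Eno1 and the sum are higher in red, Eno1b is lower, and the Eno1b share lies at 10.7 to 12.1% in controls and 3.76 to 4.13% in the null-labelled group.

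Eno3, the muscle subunit, differed by less than the spread between libraries. It had 963, 942 and 907 CPM in controls and 971, 915 and 957 CPM in the null-labelled group, and the groups overlapped. The log2 fold change was 0.016 ± 0.043 (SE), a ratio of 1.01 with a 95% interval from 0.947 to 1.08. The cardiomyocyte markers Myh6, Myh7, Tnnt2, Tnni3, Actc1, Ryr2, Pln, Myl2, Myl3 and Nkx2-5, which define the labelled tissue, summed to 67329 to 73280 CPM in controls and 69642 to 71268 CPM in the null-labelled group. The sums overlapped, and Myh7 was the largest part of each. In edgeR 9 of the 10 markers were not called and 4 had an unadjusted p under 0.05. Of those 4, Actc1 was lower, while Myh6, Pln and Ryr2 were higher (log2 fold changes 0.14, 0.17 and 0.23, not called). The number called higher was 2 with DESeq2 and also without control 1. It was 1 with library size alone, upper quartile scaling or no filter. Actc1, the cardiac actin, was called lower, at 15486 to 16186 CPM in controls and 13243 to 14616 in the null-labelled group (log2 fold change −0.18 ± 0.04, edgeR adjusted p = 0.0401). That call was lost with limma-voom (adjusted p = 0.0601), with a replicate block (edgeR adjusted p = 0.0866) and without control 1, control 2 or any single null-labelled library (edgeR adjusted p from 0.0637 to 0.148), and without null-labelled 1 and 3 the log2 fold change was −0.27.

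The mix of subunits, counted per length, differed slightly between the groups. Eno3 made up 94.3, 94.2 and 93.4% of enolase counts per length in controls and 93.1, 92.5 and 92.1% in the null-labelled group. The groups did not overlap, with means of 93.9 ± 0.515% and 92.6 ± 0.475% (SD, n = 3), a difference of −1.40 points. The part of the Eno1 pair ran from 3.78 to 3.92% in controls and from 5.12 to 5.85% in the null-labelled group. With the longest transcript as length the Eno3 part was lower, 87.5 to 88.7% against 84.4 to 86.2%, and the difference was −3.09 points. The number of Eno3 counts per Eno1 count was 8.87, 8.70 and 9.07 in controls and 6.13, 5.36 and 5.29 in the null-labelled group. These parts depend on uncertain counts, since 65.4% of Eno1 and 79.6% of Eno1b stretches of 75 bases were shared, against 0% for Eno3. Eno3 itself had a log2 fold change of 0.016, so the difference in mix mainly restates the higher Eno1 counts and is not separate evidence.

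Eno2, the neuronal subunit, had 51.5, 50.3 and 75.1 CPM in controls and 51.2, 46.3 and 56.1 CPM in the null-labelled group. Control library 3 stood above the other 5, which lay close together, and the groups overlapped. The log2 fold change was −0.20 ± 0.18 (SE), with a 95% interval from −0.66 to 0.26. Without control library 3 it was 0.0072 ± 0.075, and without null-labelled libraries 1 and 3 it was −0.35 ± 0.30.

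Control library 3 also had the highest summed level of 9 erythroid genes, 5076 CPM where controls 1 and 2 had 1746 and 2893 CPM, with 1208 to 1968 CPM in the null-labelled group. The sums overlapped, but the 7 erythroid genes tested all had log2 fold changes below 0 (median −0.92), against 7589 of all 14815 tested genes. In edgeR 0 of the 7 were called, and 2 were called lower with DESeq2. The 8 hepatocyte genes summed to 47.9 CPM in control 3, against 18.6 to 38.3 in the other 5 libraries. Most of that sum was Trf, with 33.2 CPM in control 3 and 34.4 and 33.5 CPM in null-labelled libraries 2 and 3. Alb, Afp, Apoa1, Apoa2 and Fgb were highest in control 3, while Trf, Ttr and Serpina1a were not highest there. The 10 neuron markers summed to 41.9 CPM in control 3, 34.3 and 37.4 CPM in controls 2 and 1, and 27.0 to 38.5 CPM in the null-labelled group. Most of the neuron sum was Uchl1, a neuronal ubiquitin hydrolase, with 33.8 CPM in control 3, 31.1 and 25.3 CPM in controls 1 and 2, and 20.7 to 31.6 CPM in the null-labelled group, while Tubb3, Elavl4 and Snap25 were not highest in control 3. Schwann cell markers summed to 39.8 to 42.4 CPM in controls and 35.2 to 37.2 in the null-labelled group. No gene of these 4 lists was at 0 in all libraries, and their part in the Eno2 level was not tested.

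Eno4 was hardly detected. It had 6, 3 and 4 counts in controls and 4, 5 and 17 in the null-labelled group, and it was left out of the test by the filter on low counts. Control library 2 was at the level of 3 counts, and null-labelled library 3 alone exceeded 6. Its first exon overlaps Hspa12a on the other strand, and the strand setting of the counting is not given in the sources used here, so some of these counts may belong to Hspa12a.

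**Figure D4:**
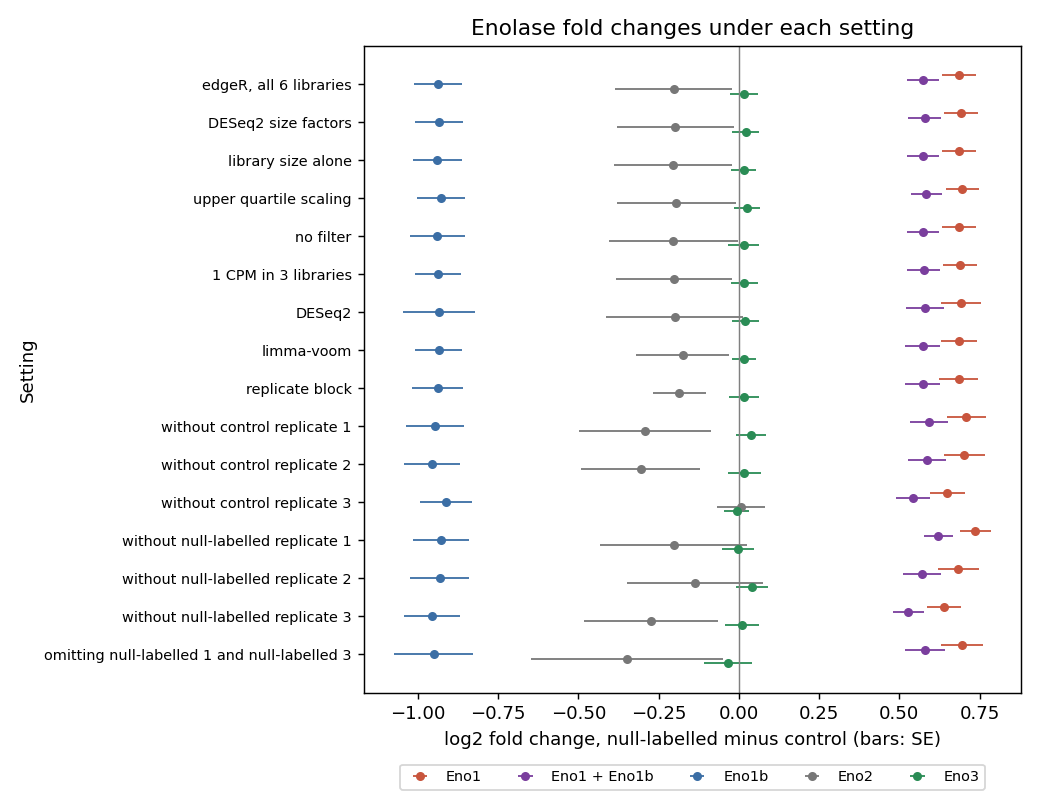
Log2 fold change (null-labelled minus control, bars show SE) of Eno1, its sum with Eno1b, Eno1b, Eno2 and Eno3 under 16 settings of the analysis on the y axis. Eno1 stays between 0.64 and 0.74, the sum between 0.53 and 0.62 and Eno1b between −0.96 and −0.91, while Eno2 and Eno3 cross 0.

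Macrophage and endothelial markers differed between the groups. Of 10 macrophage markers 5 were called higher in edgeR and 5 were not called, against 2.43% called higher over all tested genes. The number was 5 without control 3, 4 without null-labelled 3 and 1 without control 1, and it was 0 without control 2, null-labelled 1 or null-labelled 2, where 7, 7 and 8 had an unadjusted p under 0.05. Over all genes 801 were called, with 942 without control 3, 277 without null-labelled 3 and 574 without control 1. Without control 2, null-labelled 1 or null-labelled 2 there were 402, 385 and 258. The number of macrophage markers called was 7 with DESeq2 and 2 with limma-voom. Their sum was 78.9 to 90.3 CPM in controls and 102 to 126 in the null-labelled group. Of 10 endothelial markers 6 were called lower and 4 were not called, against 2.98% called lower over all tested genes. They summed to 1793 to 2010 CPM in controls and 1475 to 1612 CPM in the null-labelled group. The number called lower was 3 without null-labelled 2 or null-labelled 3. Both cell types express Eno1, and their part in the Eno1 difference was not tested. In bulk tissue, fewer cells of a type and less RNA per cell cannot be told apart. Skeletal muscle genes, some of which the fetal heart also expresses, summed to 1565 to 1798 CPM in controls and 1670 to 1838 in the null-labelled group, and Ckm made up nearly all of it (1469 to 1787 CPM over the 6 libraries). Null-labelled library 1 stood apart in Myh3 (3.38 CPM, where the other 5 had 0.413 to 1.78), Mylpf (5.00, others 1.59 to 2.53) and Tnnt3 (3.90, others 1.49 to 1.86). It was also highest in Myh8 (9.20, others 3.20 to 5.78), and Myod1 had counts only there. Acta1, Actn3, Myog, Ckm and Pax7 were not highest in it, with Acta1 at 44.5 CPM there and 85.7 CPM in control 3. Without null-labelled 1 the log2 fold change of Eno3 was −0.0014 ± 0.050, and the part of these genes in the Eno3 level was not tested.

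The other steps of glycolysis were read from 33 genes of glucose uptake, glycolysis and lactate handling, of which 30 were tested. In edgeR 1 was called higher, 1 lower and 28 were not called, against 2.43% and 2.98% of all tested genes. The median log2 fold change was −0.031, with 9 genes above 0 and 21 below, and over all tested genes it was −0.0040. The Eno1 difference of 0.69 lay above the value of each of these 30 genes, of which Hk3, at 0.32 ± 0.22 (SE, not called), was the highest.

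Slc2a4, the insulin-responsive glucose transporter, was called higher. It had 110.02, 104 and 102 CPM in controls and 122, 119 and 114 CPM in the null-labelled group, a log2 fold change of 0.17 ± 0.04 (edgeR adjusted p = 0.0452). The call was lost with limma-voom (adjusted p = 0.066) and without control 2, control 3 or any single null-labelled library (edgeR adjusted p from 0.0718 to 0.149), and without null-labelled 1 and 3 the log2 fold change was 0.18. The groups did not overlap, but the gap was small next to the level.

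Gapdh, the dehydrogenase upstream of enolase, was called lower. It had 28.6, 23.9 and 29.4 CPM in controls and 17.01, 20.1 and 20.9 CPM in the null-labelled group, a log2 fold change of −0.50 ± 0.10 (edgeR adjusted p = 0.0273). Of its 75-base stretches 80.3% occurred in other genes, 121 of them, so its counts are uncertain in the same way as those of Eno1. The call was lost without control 1, control 3 or any single null-labelled library (edgeR adjusted p from 0.0546 to 0.0856), and without null-labelled 1 and 3 the log2 fold change was −0.44.

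Genes next to enolase in the pathway did not pass the test. Pgam1 and Pgam2, whose mutase supplies the substrate of enolase, had log2 fold changes of −0.15 ± 0.10 and −0.022 ± 0.044. Pkm, the pyruvate kinase that uses its product, had −0.074 ± 0.041. Pgk1, the kinase before the mutase, had −0.20 ± 0.07, with 67.5% of its stretches in other genes.

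Of the remaining genes by smallest p, none passed the threshold. Pfkm, the muscle phosphofructokinase, had a log2 fold change of 0.16 ± 0.04 (edgeR adjusted p = 0.0645), and Slc16a3, a lactate exporter, −0.26 ± 0.08 (edgeR adjusted p = 0.105). The lactate transporter Slc16a1 (−0.13), the kinase Adpgk (−0.10), the aldolase Aldoc (−0.27), the regulator Pfkfb4 (−0.18) and the lactate dehydrogenase Ldhb (0.088) had edgeR adjusted p from 0.152 to 0.364. Ldha, Aldoa and Tpi1, all abundant, had log2 fold changes of −0.040, −0.0099 and 0.0014.

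**Figure D5:**
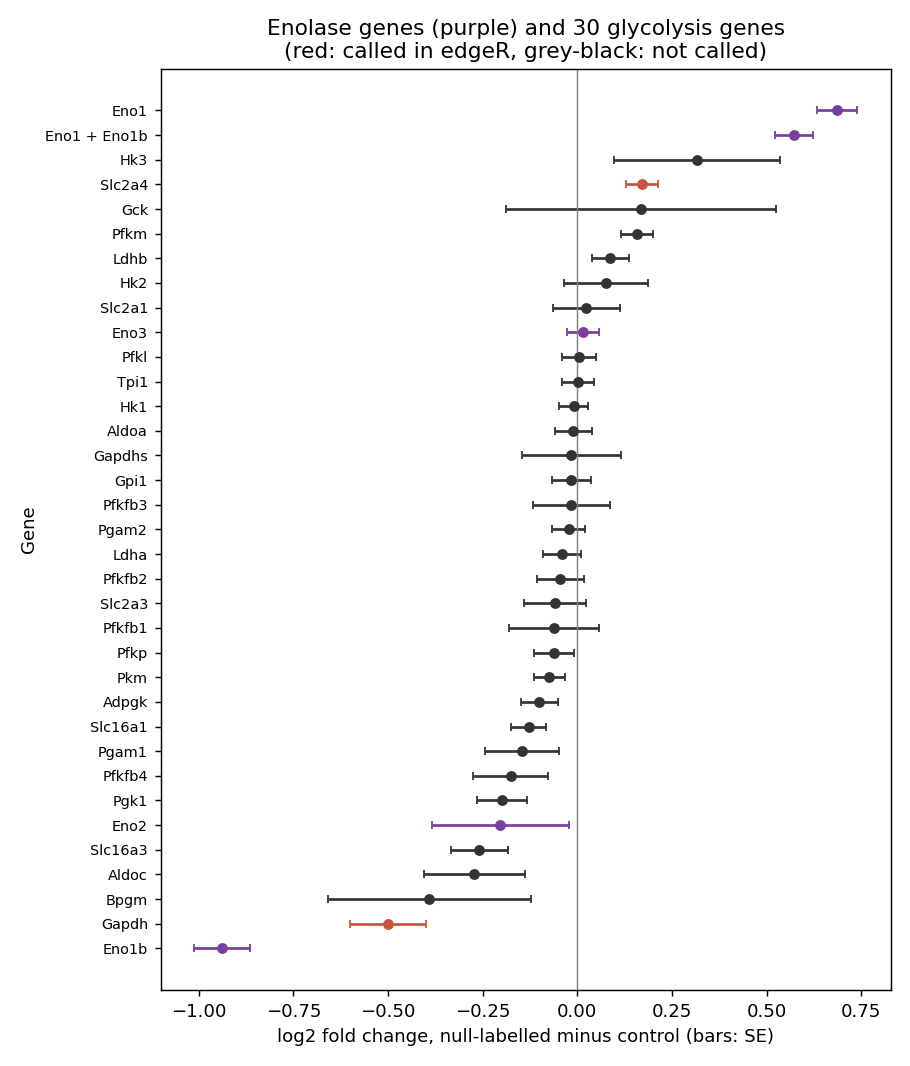
Log2 fold change (null-labelled minus control, x axis, bars show SE) of the enolase genes (purple) and 30 tested glycolysis genes (red where called in edgeR, dark where not). Eno1 at 0.69 and Eno1b at −0.94 lie at the ends, Eno3 sits near 0, and the glycolysis genes run from −0.50 (Gapdh) to 0.32 (Hk3).

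Eno1 lies in a stretch of chromosome 4 from 145 to 152 Mb, bounds set after values were seen, where 22 of 66 tested genes were called (33.3%, against 5.41% of all tested genes), 10 higher, Eno1 among them, and 12 lower. The number called there was 11 without control 2, 14 without null-labelled 1, and 9 without null-labelled 2 or null-labelled 3, while calls over all genes went from 801 to 402, 385, 258 and 277. With a replicate block it was 13, of 570 over all genes. Within 500 kb of Eno1 the files held 11 other genes, of which 7 were tested and 1 was called. This was H6pd, which encodes a hexose phosphate dehydrogenase of the endoplasmic reticulum, at 64.5 ± 2.03 CPM in controls and 75.4 ± 1.69 CPM in the null-labelled group (log2 fold change 0.23 ± 0.04, edgeR adjusted p = 0.0175). Its call was lost without control 2 or any single null-labelled library (edgeR adjusted p from 0.0531 to 0.062), and without null-labelled 1 and 3 the log2 fold change was 0.20. Rere, the nearest tested gene downstream, had a log2 fold change of 0.040 ± 0.035. The files held 0 other genes within 500 kb of Eno1b.

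The genes most like Eno1 over the 6 libraries were found by the root mean square difference of log2 CPM, each gene centred on its own mean, among the 9800 genes whose mean reached 10 CPM. They were Trp53inp1 (difference 0.0719), Col5a3 (0.0859), Abcg1 (0.0928), Abca1 (0.0977) and Dpep1 (0.111), with log2 fold changes from 0.55 to 0.69. Most like Eno1b were Tmem255a (0.0821), Zfp979 (0.0858), Jam2 (0.110), Itga2 (0.110) and Reln (0.114), with log2 fold changes from −0.92 to −0.72. With 6 libraries in 2 groups, the measure holds the step between the groups as well as the spread within them, and it is a description only.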

How the data were processed

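The authors deposited raw gene counts, a separate file for each library. The submitters' processing notes name build mm10 and the tools HTSeq 0.6.1p1, STAR, DESeq2 and cutadapt 1.13, without role or order; annotation, strand and multimapping settings: not given in the sources used here. Of 25006 identifiers 24991 matched GENCODE M21 (same build).

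Counts were filtered (filterByExpr), scaled by TMM, and compared with edgeR 4.0.16 (R 4.3.3; quasi-likelihood F test, robust, group only, two-sided, Benjamini-Hochberg over all genes). For the sum, the Eno1 and Eno1b rows were replaced by their total and the whole table was refitted. In simulated data for this comparison (14815 genes, 14696 tested), 78% of genes changed 1.5-fold and 92% changed 2-fold were recovered, with 14 false calls. Of genes changed 1.2-fold only 26% were recovered, so a gene not called can still differ by that much. Alternatives used DESeq2 1.42.0, limma-voom (limma 3.58.1), other scalings and filters, a replicate term and left-out libraries.

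Members and lists were chosen with earlier results of these data known. Named were the members, called glycolysis genes and those of smallest p up to 12, the 5 genes most like Eno1 and Eno1b, called neighbours, and Prox1. Ldha, Aldoa, Tpi1, Hk3, Pgam2, Rere and the single marker genes given with values were added after values were seen.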

Additional observations from a re-analysis of the deposited data

How the results depend on the processing

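Over 15 alternatives the log2 fold change of Eno1 ranged from 0.64 to 0.74, that of the sum from 0.53 to 0.62 and that of Eno1b from −0.96 to −0.91. Eno2 reversed without control 3 (0.0072; −0.31 to 0.0072 with 1 library left out), and Eno3 reversed without control 3 (−0.0070), without null-labelled 1 (−0.0014; −0.0070 to 0.041 with 1 library left out) and without null-labelled 1 and 3 (−0.034); no cause was tested. The Eno3 part of enolase counts differed by −3.09 points with the longest transcript as length and by −1.69 to −1.19 with 1 library left out. Eno4 was fitted only with no filter (log2 fold change 0.94 ± 0.62).

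Genes called over the table numbered 801, from 258 to 942 with 1 library left out: 402 without control 2, 385 without null-labelled 1, 258 without null-labelled 2 and 277 without null-labelled 3. Without null-labelled 1 and 3, which leaves 1 null-labelled library whose spread is taken from the controls, there were 52. Glycolysis genes called higher numbered 2 with upper quartile scaling and DESeq2 (Pfkm and Slc2a4), 0 with limma-voom, 0 to 1 with 1 library left out and 0 without null-labelled 1 and 3. Those called lower numbered 2 with DESeq2 (Gapdh and Slc16a3), 0 to 1 with 1 library left out and 0 without null-labelled 1 and 3.

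No pairing by replicate number was seen. Same-numbered libraries deviated with correlations of −0.063, −0.056 and −0.13 across genes, and none correlated best with its own number. With 3 libraries per group, these values cannot exclude a pairing. With a replicate block 570 genes were called, glycolysis genes called lower numbered 3 (Aldoc, Gapdh and Slc16a3), and the log2 fold changes were 0.69 for Eno1, −0.94 for Eno1b and 0.57 for the sum.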

Other observations

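Glycolysis has other retrogenes used in the male germ line. Of 3 read here, Pgk2 was at 0 in all libraries and Aldoart1, a copy of Aldoa, had 25, 13 and 18 counts in controls and 25, 24 and 33 in the null-labelled group. Its log2 fold change was 0.52 ± 0.27 and was not called (edgeR adjusted p = 0.322); Aldoart2 was below the filter. Bpgm, the mutase that makes bisphosphoglycerate in red cells, had 35.2, 41.9 and 65.5 CPM in controls and 38.2, 38.5 and 31.9 CPM in the null-labelled group, highest in control 3 as were Eno2 and the summed erythroid genes.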
